A study of Mus musculus with 6 samples.

Results

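Crhr1, Mc2r, Npy2r, Ntrk2, Irs2 and Ptpn1 encode 4 receptors and 2 intracellular signal proteins through which stress hormones and signals of energy supply act. They were picked by gene symbol in the platform annotation, and each had 1 probe among the 10080 spots of an in-house printed oligonucleotide array. Their Entrez Gene identifiers are 12921 for Crhr1, 17200 for Mc2r, 18167 for Npy2r, 18212 for Ntrk2, 384783 for Irs2 and 19246 for Ptpn1. The arrays set hypothalamic RNA of collagen-treated male DBA/1 mice, which are prone to arthritis after collagen, against that of controls with the dyes Cy3 and Cy5. Mice were 8 weeks old and received either 100 ul of collagen mixed with 100 ul of complete Freund's adjuvant, or 200 ul of the adjuvant alone. The volume of adjuvant therefore differed together with collagen and the effects of both cannot be told apart. Both groups were given lipopolysaccharide at day 24, so the controls carried adjuvant and endotoxin too. How long after that the tissue was taken is not clear. Each of 3 biological replicates was hybridised on 2 arrays with the dyes exchanged, called here its Cy5 array and its Cy3 array after the dye of the collagen sample. Whether a replicate was a single mouse or a pool is not said. P-values therefore measure the spread between these samples.

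In the stress axis, corticotropin-releasing hormone from the paraventricular nucleus acts on Crhr1 in the pituitary and in the brain, and the adrenocorticotropin released by the pituitary acts on Mc2r, chiefly in the adrenal cortex. Npy2r is the inhibitory receptor through which neuropeptide Y neurons of the arcuate nucleus restrain themselves and through which the gut hormone peptide YY lowers food intake. Ntrk2 (TrkB) is the tyrosine kinase receptor of brain-derived neurotrophic factor, a signal that lowers food intake in the hypothalamus. Irs2 is a docking protein that couples the insulin receptor to phosphoinositide kinase, and Ptpn1 is a tyrosine phosphatase that removes phosphate from the insulin receptor and from the leptin receptor's kinase Jak2.

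All 6 probes gave a log ratio on all 6 arrays. Of the 10080 spots, 2316 did so and were tested. The ratio on an array was the mean of up to 3 repeat scans, and a channel that the deposited files list at 0 in a scan had been rejected there. Npy2r, Irs2 and Ntrk2 had a ratio in 18 of 18 scans, Mc2r and Ptpn1 in 17 and Crhr1 in 14. For Crhr1 the ratio rested on a single scan on the Cy3 array of replicate 1 and on the Cy5 array of replicate 3. No scan used for the 6 probes had saturated pixels.

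Spot signal relative to the local background lay close to the limit of 1.5 for the stress axis receptors and further above it for Ntrk2. Over the 12 channel readings of a probe, this ratio (spot signal with its background, over the background) ran from 1.53 to 4.16 for Crhr1 and from 1.56 to 3.31 for Mc2r. It ran from 1.79 to 14.97 for Npy2r, from 2.47 to 16.4 for Irs2, from 1.59 to 14.1 for Ptpn1 and from 2.43 to 38.7 for Ntrk2. Because probes bind with different strength, these ranges show how well each probe was measured and give no order of transcript levels. The background-subtracted intensity per pixel in the first scan of Ntrk2 ranged over the arrays from 1821 to 12939 in collagen and from 1176 to 12742 in control. For Mc2r it ranged from 247.1 to 911.9 in collagen and from 338 to 1006 in control. For Npy2r the ranges were 680.2 to 3984 in collagen and 598.7 to 3271 in control, and for Irs2 they were 891.6 to 4596 and 1034 to 3957. Crhr1 read 403.7 to 726.6 in collagen and 309.6 to 774.7 in control on the arrays where the first scan kept the channel. The ranges of collagen and control overlapped for each of the 6 probes. The levels of Ptpn1 ranged from 199 to 3357 in collagen and from 306 to 3206 in control, with the lowest readings of both on the Cy5 array of replicate 3.

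**Figure D1:**
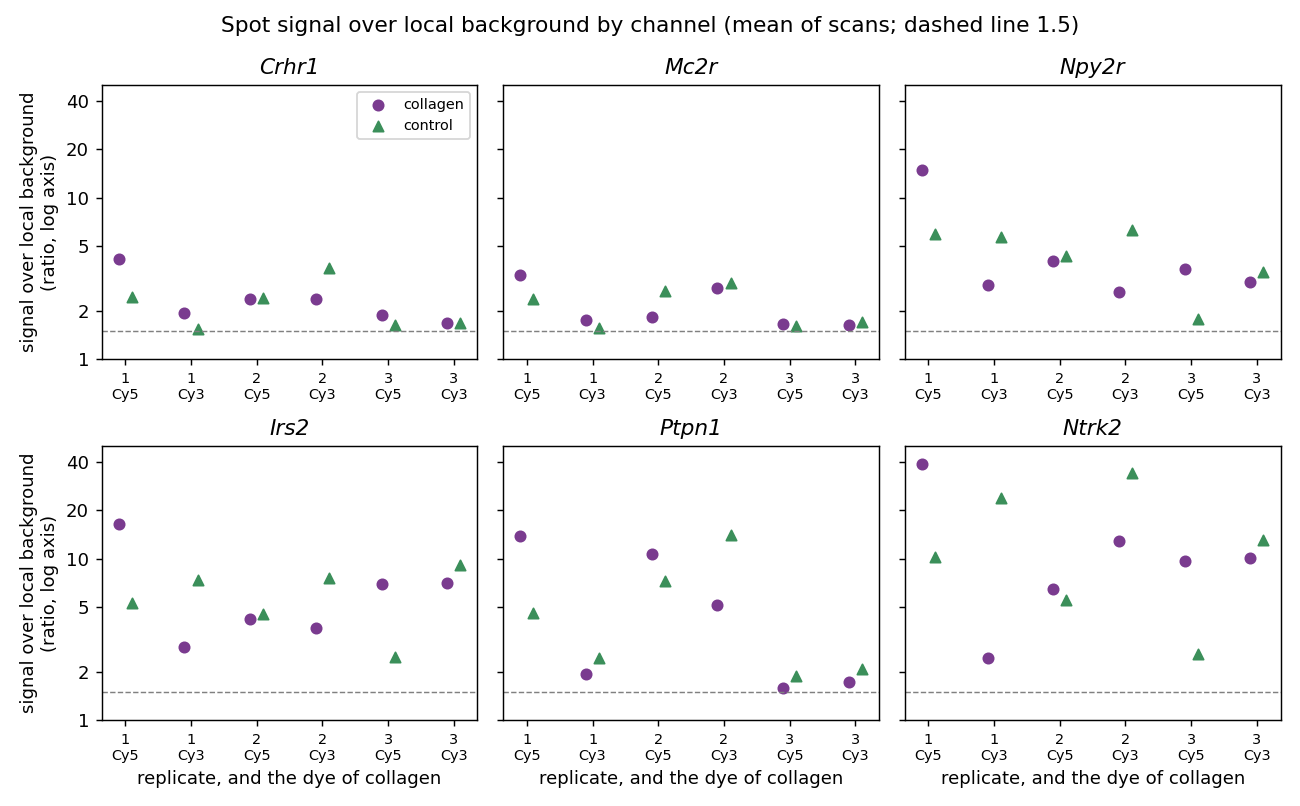
Signal over local background (log axis, mean of scans) for each gene on the 6 arrays, with collagen as circles, control as triangles and the limit of 1.5 as a dashed line. Crhr1 and Mc2r stay between 1.53 and 4.16 on every array, while Ntrk2 reaches 38.7, and which treatment reads higher changes from array to array.

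The tissue label was checked against 16 markers of the hypothalamus. Of these, 13 had a probe, and Oxt, Pmch, Gnrh1, Gal and Cartpt had a ratio on all 6 arrays. Avp and Hcrt had a ratio on 3 arrays, and Crh, Pomc and Agrp had no probe named in the platform table. Of the pituitary markers Pitx1 and Scg2 had a ratio on all 6 arrays and of the adrenal cortex markers Cyp11a1. Of 5 thalamus and cortex markers with a probe, 4 did, namely Calb2, Neurod6, Fezf2 and Ntng1. A ratio on all arrays was thus also seen for markers of other tissues and brain regions. In none of the marker lists did a gene pass the test, and the 5 tested hypothalamic markers had a median log2 ratio of -0.18, with 1 positive, Oxt, and 4 negative. In RNA of a whole tissue piece, fewer cells of a type and less RNA per cell cannot be told apart. Between 4650 and 8562 spots had a ratio on an array. The Cy3 array of replicate 1 stood apart, with an SD of log2 ratios of 1.66 against 0.38 to 0.67 on the other 5, so each gene's fit is given with and without it.

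None of the 6 genes passed the test of collagen against control. The fitted log2 ratios of collagen over control lay between -0.35 for Ptpn1 and 0.045 for Crhr1, against a median of -0.089 over the 2316 tested probes. With limma, 0 of the 6 had an adjusted p under 0.05, and over all tested probes 0 of 2316 (0%) passed. At an unadjusted p under 0.05 there were 0 of the 6 and 25 of 2316 (1.08%). On 6 of 6 arrays the same sign was seen for 0 of the 6 genes and for 18 probes (0.777%), of which 6 were higher (0.259%) and 12 lower (0.518%). In 3 of 3 replicates 0 of the 6 were higher, against 170 probes (7.34%), and 1, Ptpn1, was lower, against 377 (16.3%), which makes 547 probes (23.6%) with the same sign. The 95% intervals of limma's fit allowed collagen levels between 0.787 and 1.35 times control for Crhr1, between 0.695 and 1.22 times for Mc2r and between 0.708 and 1.20 times for Npy2r. They allowed 0.689 to 1.31 times for Ntrk2, 0.566 to 1.22 times for Irs2 and 0.584 to 1.06 times for Ptpn1. Every interval includes 1, and a missing call does not show that the levels were alike.

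**Figure D2:**
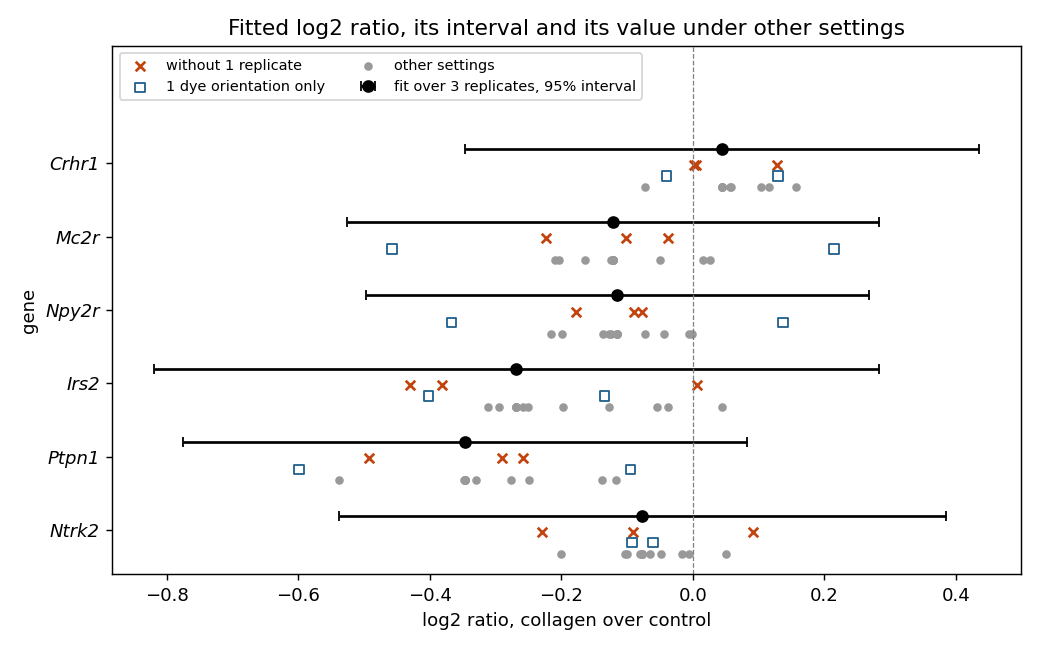
Fitted log2 ratio of collagen over control for each gene (black, with its 95% interval, n = 3 replicates), and its value without 1 replicate (crosses), with 1 dye orientation (squares) and with other settings (grey). Every interval includes 0, and Ptpn1, at -0.35, is the gene whose values lie below 0 in all settings shown.

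The sign of every ratio rests on reading channel A as Cy3 and channel B as Cy5, which follows the order of the channels in the labels but is not stated. With the other reading every direction given here would be turned.

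Crhr1, the main receptor of corticotropin-releasing hormone, had log2 ratios of 0.17 and 0.089 on the Cy5 and the Cy3 array of replicate 1. They were 0.14 and -0.38 in replicate 2 and 0.076 and 0.18 in replicate 3. Collagen thus read higher on 5 of 6 arrays, and the remaining array lay far below the others. The replicate means were 0.13, -0.12 and 0.13, and the fit gave 0.045 ± 0.16 (SE, n = 3; limma adjusted p = 0.939). On the array at -0.38, its 3 scans ran from -0.46 to -0.34, so the low value was repeated in each scan. The median ratio of all spots in the printing block of Crhr1 on that array was -0.22. Relative to its block Crhr1 stood at -0.16 there, and between 0.0032 and 0.32 on the other 5 arrays. Without replicate 1 the fitted ratio was 0.0023 and without replicate 3 it was 0.0042. With replicate 1 taken from its Cy5 array alone it was 0.059.

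Mc2r, the receptor of adrenocorticotropin, changed sign with the dye in every replicate. Its log2 ratio of collagen over control was -0.43, -0.29 and -0.65 on the arrays of replicates 1, 2 and 3 with collagen in Cy5. It was 0.11, 0.46 and 0.077 on the arrays with collagen in Cy3. The groups of arrays did not overlap, and channel A gave the higher reading on 6 of 6 arrays whichever sample it held. Over all tested probes 360 of 2316 (15.5%) kept the same sign of channel B over channel A on 6 arrays. Averaging each pair left replicate means of -0.16, 0.084 and -0.29 and a fit of -0.12 ± 0.16 (SE, n = 3; limma adjusted p = 0.872). Repeat scans of Mc2r had an SD of 0.024 to 0.14. Relative to the median of its printing block, Mc2r stood at -0.42, -0.059 and -0.68 with collagen in Cy5. With collagen in Cy3 it stood at 0.97, 0.31 and -0.014, so both arrays of replicate 3 were negative by that measure. The block median on the Cy3 array of replicate 1 was -0.86. With print-tip loess, which smooths within each printing block, the fit turned to 0.026. With replicate 1 taken from its Cy5 array alone it was -0.21, but there the channel difference of replicate 1 is not averaged out.

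Npy2r, the inhibitory receptor on neuropeptide Y neurons, gave lower ratios with collagen in Cy5 than with collagen in Cy3. The 3 arrays with collagen in Cy5 read -0.23, -0.61 and -0.27 in replicates 1, 2 and 3, and those with collagen in Cy3 read -0.15, 0.28 and 0.29. The orientations did not overlap, with a gap of little size between the arrays of replicate 1. The scans of the Cy3 array of replicate 1 ran from -0.43 to 0.14, so this gap lay within their spread. On the Cy5 array of replicate 3 the scans ran from -0.57 to 0.089. In the authors' deposited table the orientations did overlap. The Cy3 array of replicate 2 was at -0.14 there, and the Cy5 arrays of replicates 1 and 2 were at -0.052 and -0.018. The replicate means were -0.19, -0.16 and 0.011, with the smallest SD between replicates of the 6 genes, 0.11. The fit gave -0.11 ± 0.15 (SE, n = 3; limma adjusted p = 0.872), and with print-tip loess the ratio was -0.0019. With replicate 1 taken from its Cy5 array alone, again without averaging over the dyes, it was -0.13. The blocks around Npy2r in replicate 2 had medians of -0.57 and 0.53 on the 2 arrays, where Npy2r itself read -0.61 and 0.28. Relative to those blocks it stood at -0.034 and -0.25, so the spots around it moved the same way.

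Ntrk2, the receptor of brain-derived neurotrophic factor, went in different directions in different replicates. Its log2 ratios with collagen in Cy5 were -0.033, -0.46 and 0.32 in replicates 1, 2 and 3, and with collagen in Cy3 they were -0.79, 0.37 and 0.14. The orientations overlapped, and 3 arrays read higher and 3 lower. Replicate means were -0.41, -0.048 and 0.23, so 1 replicate was low, another near 0 and the last high. The fit gave -0.077 ± 0.19 (SE, n = 3; limma adjusted p = 0.916). The lowest value, -0.79, came from the Cy3 array of replicate 1, where the channel A background at the spot in the first scan was 3881 per pixel against 353 to 1031 on the other 5 arrays. The part of this background in the value was not tested. On that array the median of the printing block of Ntrk2 was 0.35, and relative to its block Ntrk2 stood at -1.14. Without replicate 1 the fit turned to 0.091, and with replicate 1 taken from its Cy5 array alone it turned to 0.050. The files do not say whether the probe reads the full-length receptor, its truncated forms or both.

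Irs2, the docking protein of the insulin receptor, had the widest spread of the 6 genes. With collagen in Cy5 its log2 ratios were 0.12, -0.49 and -0.026 in replicates 1, 2 and 3, and with collagen in Cy3 they were -1.75, 0.41 and 0.14. A single array lay below all others. Its 3 scans read from -1.83 to -1.69, and the median of its printing block was -0.93, which leaves -0.83 for Irs2 relative to its neighbours. The replicate means were -0.82, -0.042 and 0.056, with an SD of 0.48. The fit gave -0.27 ± 0.22 (SE, n = 3; limma adjusted p = 0.872). It was 0.0069 without replicate 1 and 0.044 with replicate 1 taken from its Cy5 array alone. With collagen in Cy5 only, which also leaves out the Cy3 array of replicate 1, it was -0.13. With print-tip loess it was -0.038.

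Ptpn1, the phosphatase that acts on the insulin receptor and Jak2, was the lowest of the 6 genes and had the same sign in every replicate. Its log2 ratios with collagen in Cy5 were 0.17, 0.084 and -0.53 in replicates 1, 2 and 3, and with collagen in Cy3 they were -1.21, -0.20 and -0.39. Collagen read lower on 4 of 6 arrays, and the orientations overlapped. The replicate means were -0.52, -0.057 and -0.46. The fit gave -0.35 ± 0.17 (SE, n = 3; limma adjusted p = 0.872, unadjusted p = 0.0944), which was rank 93 of the 2316 probes by p. Relative to the median of its block, the array at -1.21 still read -0.96. Its collagen channel there was 1.95 times and its control channel 2.44 times the background. The arrays of replicate 3, at -0.53 and -0.39, had channels at 1.59 to 2.07 times the background, and the array at -0.53 had a ratio in 2 of 3 scans. Without replicate 1 the fit was -0.26, with replicate 1 from its Cy5 array alone it was -0.12, and with print-tip loess it was -0.25. Of the 6 genes, Ptpn1 alone kept its sign in all of the 17 other settings that gave it a value, between -0.60 and -0.0945. Hsd11b2, Fkbp5 and Jak2, given below, also kept theirs in every setting that gave them a value. The settings reuse the same arrays, and how many of all tested probes kept their sign was not counted.

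**Figure D3:**
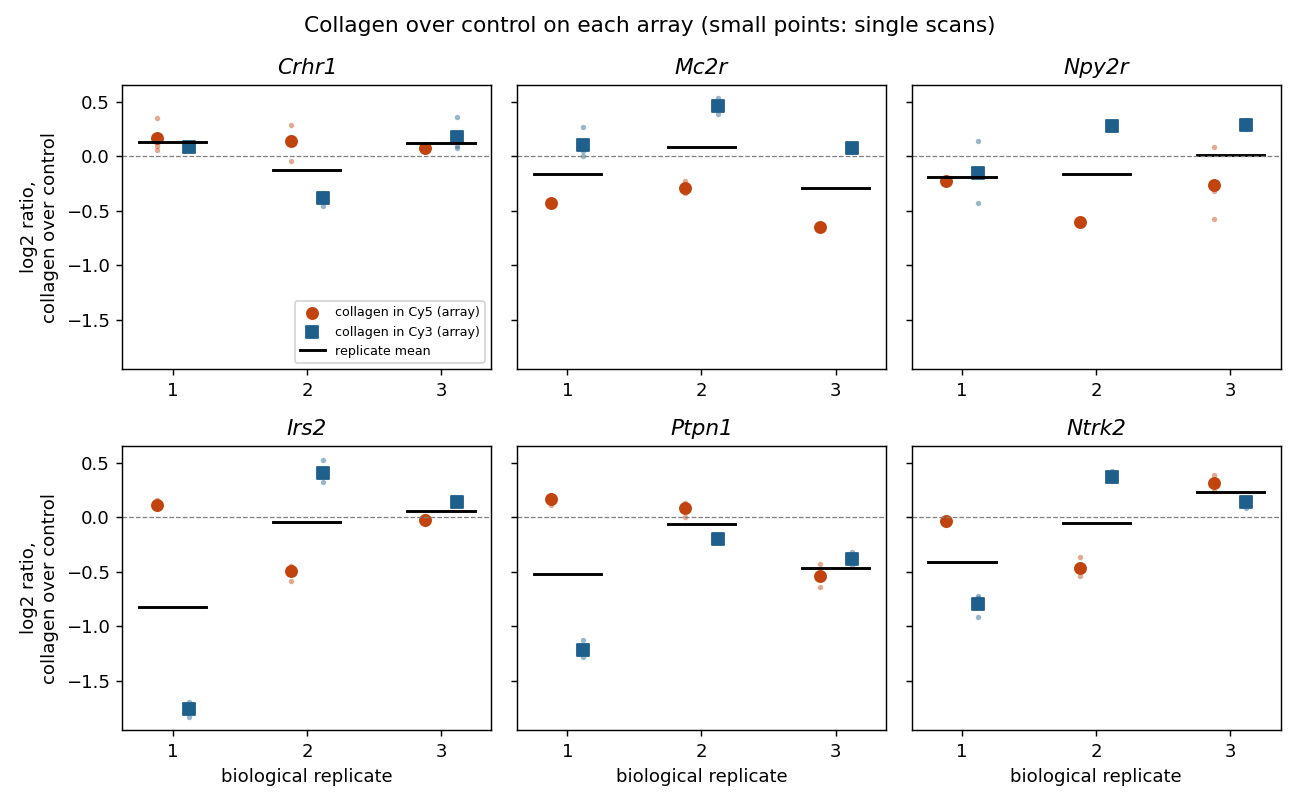
Log2 ratio of collagen over control on each array (circles with collagen in Cy5, squares with collagen in Cy3), in single scans (small points) and as the mean of a replicate (black lines), for 3 replicates. The 2 arrays of a replicate lie on opposite sides of 0 in every replicate for Mc2r and for Irs2, whose values are furthest apart in replicate 1, at 0.12 and -1.75.

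For each of the 6 genes the SD over the arrays exceeded the median SD between scans of an array. The median SD between scans was 0.032 for Npy2r, 0.045 for Mc2r, 0.057 for Irs2, 0.059 for Ntrk2, 0.068 for Ptpn1 and 0.16 for Crhr1. On single arrays the SD between scans of Npy2r ran from 0.010 to 0.33, the highest value of the 6 genes. The SD over the 6 arrays was 0.21 for Crhr1, 0.35 for Npy2r, 0.41 for Mc2r, 0.46 for Ntrk2, 0.50 for Ptpn1 and 0.79 for Irs2, against a median of 0.55 over the tested probes. Ratios turned to collagen over control correlated negatively between the arrays of a pair across the 2316 probes, which are not independent replicates, at -0.20, -0.75 and -0.32 in replicates 1, 2 and 3. A reading that stays with the channel, rather than with the sample, gives a negative value here. As the mean of log2 B over A, the channel difference was -0.34 for Mc2r, -0.25 for Npy2r, 0.25 for Ptpn1, 0.13 for Irs2, 0.085 for Crhr1 and 0.016 for Ntrk2. For Mc2r, Npy2r and Crhr1 that value was larger in size than the fitted difference between collagen and control. In these means, channel differences of opposite sign in different replicates cancel. In replicates 1, 2 and 3 the channel difference was 0.94, -0.45 and -0.082 for Irs2 and 0.38, -0.42 and 0.085 for Ntrk2. In replicates 1 and 2 these were larger in size than the fits of -0.27 and -0.077. For Ptpn1 it was 0.69, 0.14 and -0.075.

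**Figure D4:**
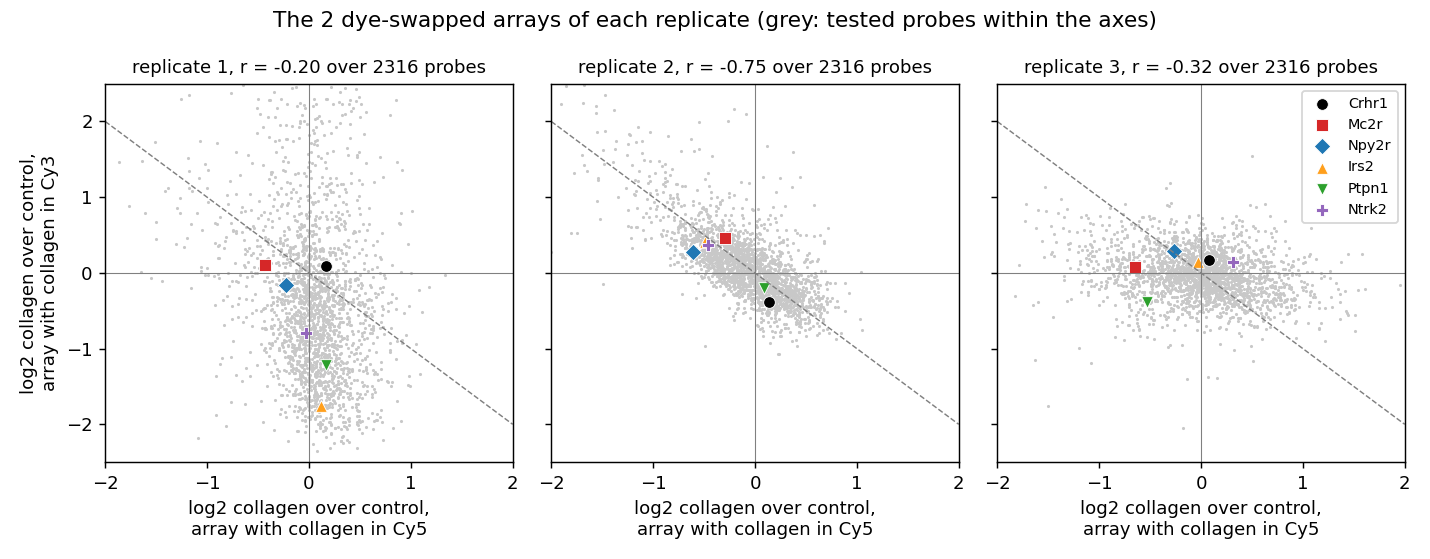
Log2 ratio of collagen over control on the array with collagen in Cy5 (x axis) and in Cy3 (y axis) of each replicate, for the tested probes (grey, those within the axes) and the 6 genes (coloured). Points along the dashed line have equal and opposite ratios on the 2 arrays, which gives the correlation of -0.75 in replicate 2, and Irs2 and Ptpn1 lie low in replicate 1 at -1.75 and -1.21.

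The signs of the 6 genes were mixed on every array. On the Cy3 array of replicate 1, 2 read higher and 4 lower with collagen, and 3 of them, Irs2, Ptpn1 and Ntrk2, had their lowest value there. On that array 33.7% of the tested probes read higher and their median was -0.42, beside a median of -0.47 for the 6 genes. On the replicate 2 arrays the 6 genes had medians of -0.38 with collagen in Cy5 and 0.32 with collagen in Cy3, beside -0.072 and 0.043 over the tested probes. On the Cy3 array of replicate 3, 5 of the 6 read higher, where 46.1% of the tested probes did. The most similar pair over the 6 arrays was Irs2 and Ntrk2, with a Pearson r of 0.91, followed by Irs2 and Ptpn1 at 0.72 and Mc2r and Npy2r at 0.71. Irs2 and Ptpn1 were both far below 0 on the Cy3 array of replicate 1, at -1.75 and -1.21. On the other arrays Irs2 read 0.12, -0.49, 0.41, -0.026 and 0.14, where Ptpn1 read 0.17, 0.084, -0.20, -0.53 and -0.39. Their values on those arrays did not run together, and r without the Cy3 array of replicate 1 was not computed. Crhr1 and Mc2r, the receptors of the stress axis, had an r of -0.65. These 15 correlations describe 6 arrays that are paired and share array-wide offsets, so no p is given.

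The probes whose ratios followed each gene most closely over the 6 arrays were taken as the 2 highest Pearson r among named tested probes. Irs2 was followed by Ednrb, an endothelin receptor (r = 0.998), and Larp6 (r = 0.996), Ntrk2 by Napg (r = 0.992) and Ttc3 (r = 0.991), and Npy2r by Nat1 (r = 0.992) and Kifap3 (r = 0.971). Mc2r was followed by Kdm5d (r = 0.992) and Dlx4 (r = 0.989), Ptpn1 by Tent5c (r = 0.990) and Rtcb (r = 0.981), and Crhr1 by Snx15 (r = 0.927) and Gpc6 (r = 0.910). These values were picked as the highest of 2316 probes over 6 arrays and carry no test. Both probes that followed Irs2 lay in its row of printing blocks, which held 14.3% of the tested probes, and both that followed Ptpn1 lay in its row, which held 11% of them. Of the probes that followed Npy2r, Kifap3 lay in its row and Nat1 did not, and those that followed Mc2r, Ntrk2 and Crhr1 all lay in other rows.

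The partners of the 6 proteins were thinly measured. Of 16 ligands, receptors and relatives listed for them, 7 had a named probe and 0 had a ratio on all 6 arrays. Npy1r, the receptor through which neuropeptide Y promotes feeding, had ratios on 5 arrays. They were -1.51 and -1.76 with collagen in Cy5 and 1.40, 1.51 and 0.76 with collagen in Cy3, so it too followed the channel. Insr, the insulin receptor, read 0.17 and -0.20 with collagen in Cy5 and 2.58, 0.40 and 0.73 with collagen in Cy3. Bdnf, the ligand of Ntrk2, lay between -0.40 and 0.44 on 5 arrays, higher on 2 and lower on 3. Mc4r, the melanocortin receptor that restrains feeding, had ratios on 4 arrays between -1.05 and 0.66, and Mc3r on 3 arrays between -0.49 and 0.42. Ngfr and Ntrk3 had ratios on 2 arrays each. None of these 16 had a ratio on both arrays of every replicate, so none of them was tested.

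In the stress axis list, 11 of 22 genes had a probe and 6 were tested, of which 0 rose and 0 fell. The median log2 ratio was -0.04, with 3 positive and 3 negative, and it turned positive with print-tip loess (0.065), with arrays centred on the tested probes (0.033), with array weights (0.032), with collagen in Cy3 only (0.088) and without replicate 1 (0.018). A median over so few genes near 0 has no settled sign. Hsd11b2, which inactivates glucocorticoids, was the highest at 0.80 ± 0.42 (SE, n = 3; limma adjusted p = 0.872), from replicate values of 2.11, 0.34 and -0.054. It was 0.12 with replicate 1 taken from its Cy5 array alone. Fkbp5, a chaperone of the glucocorticoid receptor complex, was the lowest at -0.33, with replicate values of -0.32, -0.28 and -0.38. With replicate 1 taken from that array alone it was -0.084.

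Of 34 genes of melanocortin, neuropeptide Y and other feeding signals, 21 had a probe and 8 were tested, of which 0 rose and 0 fell. Their median was -0.12, with 2 positive and 6 negative, and it turned to 0.0074 with print-tip loess and 0.11 with collagen in Cy3 only. Mc5r, another melanocortin receptor, was the highest at 0.083 ± 0.17 and Galr1, a galanin receptor, the lowest at -0.29 ± 0.26. Galr1 turned to 0.034 without replicate 1.

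Of 44 genes of insulin and leptin signalling, 25 had a probe and 10 were tested with 12 probes, of which 0 rose and 0 fell. The median was -0.16, with 3 positive and 9 negative, and it turned to 0.024 without replicate 1, 0.11 both with replicate 1 from its Cy5 array alone and with collagen in Cy5 only, and 0.013 in the authors' deposited table. Jak2, the kinase of the leptin receptor on which Ptpn1 acts, was the lowest at -0.39 ± 0.18 (SE, n = 3; limma adjusted p = 0.872), with replicate values of -0.72, -0.11 and -0.33. It was -0.064 with replicate 1 taken from its Cy5 array alone. Ptpn11, the phosphatase Shp2, had 2 probes that disagreed, at 0.35 ± 0.27 and -0.16 ± 0.24.

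Of 35 protein tyrosine phosphatases, 22 had a probe and 8 were tested with 9 probes. Among them 0 rose and 0 fell, 1 probe was positive and 8 were negative, with a median of -0.12, which was negative in every other setting, between -0.41 and -0.024. Ptpn1 was the lowest of them. Of 29 neurotrophin signalling genes, 13 had a probe and 3 were tested, namely Ntrk2, Sort1 and Creb1, of which 0 rose and 0 fell. Creb1, a transcription factor of neuronal activity, was the highest at 0.71 ± 0.43, with replicate values of 2.06, 0.16 and -0.093. It turned to -0.035 with print-tip loess and was 0.085 with replicate 1 taken from its Cy5 array alone. Over all tested probes 781 were positive and 1535 negative, so a majority of negative members was also the background. This background varied in the settings without the Cy3 array of replicate 1. With replicate 1 taken from its Cy5 array alone, 1212 of 2316 probes were positive, with a median of 0.0077. Without replicate 1, 1082 were positive, with a median of -0.0094. With collagen in Cy5 only, 1060 were positive, with a median of -0.026.

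The authors' deposited table held values for the 6 genes as log ratios whose base and direction are not stated. In the authors' deposited table Ptpn1 had 5 values, 0 positive and 5 negative, between -0.26 and -0.020, and no value on the Cy5 array of replicate 3. On the Cy5 arrays of replicates 1 and 2 it was at -0.030 and -0.049, where the ratios used here were positive, at 0.17 and 0.084. Crhr1 had 4 values in the authors' deposited table, 2 positive and 2 negative. The Cy5 arrays of replicates 1 and 2 were at -0.032 and -0.10. The Cy3 arrays of replicates 2 and 3 were at 0.093 and 0.10. The signs on those Cy5 arrays and on the Cy3 array of replicate 2 were thus opposite to those of the ratios used here. For Mc2r the authors' deposited table gave -0.20, -0.20 and -0.35 with collagen in Cy5 and 0.23, 0.23 and -0.067 with collagen in Cy3, so the split by channel was seen there in replicates 1 and 2. Irs2 on the Cy3 array of replicate 1 was -0.19 in the authors' deposited table, as on the Cy5 array of replicate 2, and its other 4 values there ran from -0.033 to 0.11.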

How the data were processed

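The submitters deposited, per the file headers, background-subtracted spot intensity in channels A and B, local background, spot area and a saturation factor, a fraction of 1 where no pixel was saturated. The 3 files of an array were taken to be repeat scans. The authors' quantification software is not named here. The authors also deposited a value table of log ratios of unstated base and direction, whose columns correlated at 0.504 to 0.771 with the ratios used here. With ratios from print-tip loess the correlations were higher on every array, at 0.671 to 0.904.

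Log2 ratios of spots above 0 in both channels were smoothed by loess (span 0.3) in each scan, averaged over scans (a saturated scan was left out where another was not), turned to collagen over control and averaged per replicate. A probe needed a ratio on 6 arrays and 1.5 times background in 1 channel on 4. The replicate means were compared with 0 in limma 3.58.1 (moderated two-sided test of lmFit and eBayes, under R 4.3.3), and p-values were adjusted by Benjamini-Hochberg over 2316 probes and a threshold of 0.05. The fit was also run on simulated replicates with independent values and no channel difference, array-wide offset or array standing apart. That run therefore does not show how the fit performs on these arrays. The number of arrays limits the precision. Figures used matplotlib 3.10.9.

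Scanner rows were ordered by block and spot position. Spots with a ratio then matched spots with a value in the table with a correlation of 0.621 to 0.904 per array, against 0.0274 to 0.117 in slide order. Of 10080 probes 9066 had 1 symbol, 12 several and 1002 none. Symbols were matched to RefSeq names of GRCm38.p6 by Entrez Gene identifier for 8977 probes.

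Arrays of a number are paired by the design, as dye swaps of the same samples, and were averaged. The members and gene lists were chosen with earlier results of these data known. Named genes were the 6 members, the highest and lowest tested gene of each list, 16 partners and, for each member, the 2 probes most like it. Other settings were normalization, background, scans, filters, saturation, orientation, weights, the deposited table and leaving out replicates. Settings added after seeing the data were arrays centred on the tested probes and replicate 1 from 1 array. The setting with 1 array leaves replicate 1 without its dye swap.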

Additional observations from a re-analysis of the deposited data

Results flagged for a closer look

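For Crhr1, the Cy3 array of replicate 2 stood apart from the other 5 arrays, at a log2 ratio of -0.38 against 0.076 to 0.18. The gap to the nearest array was 0.822 of the whole range, above Dixon's critical value for 6 values. Chance passes this limit in about 1 in 20 groups, 6 genes were looked at, and the arrays are paired. In the authors' deposited table Crhr1 was at 0.093 on this array, so the low value was not seen there. For Mc2r every array with collagen in Cy5 read lower and every array with collagen in Cy3 read higher. The means of these orientations, -0.46 and 0.22, differed by -0.67, a difference that was not tested.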

How the results depend on the processing

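None of the 6 genes passed the threshold in any setting that gave it a value, and adjusted p-values lay between 0.240 (Mc2r, collagen in Cy5 only) and 0.999. Over all probes 0 passed, except 34 (2 higher, 32 lower) with collagen in Cy5 only and 30 (all higher) without replicate 3, so leaving out 1 replicate gave 0 to 30. With 6 arrays, a dye term and a replicate block, 0 passed and the smallest adjusted p was 0.833. Directions turned as follows. With collagen in Cy3 only Crhr1 was at -0.040, Mc2r at 0.22 and Npy2r at 0.14. With array weights Crhr1 was at -0.073, Mc2r at 0.016, Mc5r at -0.012 and the second Ptpn11 probe at 0.10, with a weight of 4.83 for replicate 2 against 0.21 and 0.97 for replicates 1 and 3. With print-tip loess Mc2r was at 0.026, Creb1 at -0.035 and the first Ptpn11 probe at -0.019. In the authors' deposited table Npy2r was at 0.0059. With collagen in Cy5 only Galr1 was at 0.34 and the Ptpn11 probes at -0.16 and 0.061. With replicate 1 from its Cy5 array alone Irs2 was at 0.044, Ntrk2 at 0.050, Galr1 at 0.077 and the Ptpn11 probes at -0.036 and 0.14. Leaving out 1 replicate gave Crhr1 0.0023 to 0.13, Mc2r -0.22 to -0.038, Npy2r -0.18 to -0.077, Irs2 -0.43 to 0.0069, Ptpn1 -0.49 to -0.26, Ntrk2 -0.23 to 0.091, Galr1 -0.57 to 0.034, Mc5r -0.039 to 0.16, Hsd11b2 0.14 to 1.22 and the Ptpn11 probes -0.011 to 0.63 and -0.34 to 0.16. Hsd11b2 passed without replicate 3, at a limma adjusted p of 0.0408. The causes were not tested. Single scans gave no value for Crhr1, and scan 3 alone none for Mc2r and Ptpn1. Signals below 2 times background on at least 1 array limit Crhr1, Mc2r, Ptpn1 (replicate 3 and the Cy3 array of replicate 1) and Npy2r (the Cy5 array of replicate 3).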
